A study of Mus musculus with 34 samples.

Results

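The genes described here encode the ABC, SLCO and SLC22 transporters, the membrane proteins that carry lipids, bile constituents, hormones, vitamins and drugs into and out of liver cells. They are the protein-coding genes of the mouse assembly mm9 whose symbols start with Abca, Abcb, Abcc, Abcd, Abcg, Slco or Slc22a and a number. This naming rule was set with earlier results of these data known. The rule left out 1 Abcb gene, and 85 of 22380 protein-coding genes met it: 16 Abca, 9 Abcb, 10 Abcc, 4 Abcd, 6 Abcg, 15 Slco and 25 Slc22a genes. The study asked where the histone deacetylase HDAC3 binds liver chromatin together with the homeodomain protein PROX1 and the nuclear receptor HNF4α. Chromatin immunoprecipitation with sequencing was performed on whole livers of male C57B/6 mice aged 10 weeks, collected at zeitgeber time 10 h. HDAC3 and PROX1 were each profiled in 3 libraries from control livers. HNF4α was profiled in 2 libraries from livers of mice with floxed Hnf4α alleles, given a control virus that expresses Egfp from the hepatocyte promoter TBG per the methods and so still carrying HNF4α. The authors pooled the libraries of each factor and deposited 1 peak list per factor. The lists hold no read count, depth or value for a single liver, so each interval given with a count or share covers counting error only, and no spread between mice could be computed.

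ABC transporters use the energy of ATP to move their substrates, mostly out of the cell or into an organelle, while the SLCO proteins (organic anion transporting polypeptides) and the SLC22 proteins (organic cation, anion and carnitine transporters) carry theirs without hydrolysing ATP. A hepatocyte takes up bile acids, bilirubin and drugs from the blood through SLCO and SLC22 proteins of the sinusoidal membrane. It secretes bile salts, phospholipid, cholesterol and conjugates into bile through ABC proteins of the canalicular membrane, and other ABC proteins return material to the blood or load peroxisomes and mitochondria. HNF4α is a nuclear receptor that maintains the hepatocyte programme of gene expression, and HDAC3 is the catalytic subunit of the NCoR corepressor complex. PROX1 is a transcription factor of liver and lymphatic cells that can repress or activate genes, depending on the context.

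A peak was assigned to a gene when its centre lay between 50 kb upstream of the 5′ end of the gene (the TSS) and 2 kb past its other end. A peak with identical coordinates in the HDAC3 and PROX1 lists was called co-bound, and a co-bound peak covered over at least 50% of its 200 bp by an HNF4α peak was called triply bound. Of the 85 transporter genes, 45 (52.9%) had at least 1 co-bound peak, where 38.4% of all protein-coding genes had one. Triply bound peaks lay in the windows of 40 transporter genes (47.1%, against 31.1% of all genes) and HNF4α peaks of any kind in those of 55 (64.7%, against 49.7%). PROX1-only peaks were found at 39 genes (45.9%, against 25.2%). HDAC3-only peaks were found at 5 genes (5.88%, against 7.40%), which were Abca1, Abcc12, Abcg8, Slco1a4 and Slco4a1. A group of 29 genes (34.1%) had no peak of any list, where 44.7% of all genes had none.

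The windows of the transporter genes were longer than average, with a median of 110 kb against 67.4 kb over all genes, and a longer window has more room for peaks. Among windows longer than 81.3 kb, 53.2% of 62 transporter genes and 49.9% of all genes had a co-bound peak. Among windows of 59.4 to 81.3 kb, the shares were 55.0% of 20 transporter genes and 40.4% of all genes, and among shorter windows 1 of 3 transporter genes had one. The excess over all genes was therefore small among the long windows that hold most of the list.

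Counting a shared peak once, the windows held 185 co-bound, 7 HDAC3-only, 60 PROX1-only and 218 HNF4α peaks. The co-bound density was 1.85 peaks per 100 kb of merged window (exact Poisson interval 1.59–2.14), against 1.10 in the merged windows of all genes. HNF4α lay on 123 of the 185 co-bound peaks, or 66.5% (Wilson 95% interval 59.4–72.9%), and on 61.3% (60.6–62.0%) of all 20039 co-bound peaks. The intervals overlap. The share depended on the overlap required. When 75% of the co-bound peak had to be covered, it was 31.9% for the transporter genes and 32.5% for all co-bound peaks. No co-bound peak of the transporter genes was covered over more than 84.0%, so 75% lay near the highest coverage reached. When only HNF4α peaks scoring above the median of the list counted, the share was 48.6% (41.5–55.8%) for the transporter genes. It was 40.0% (39.3–40.7%) for all co-bound peaks, and these intervals do not overlap. Among the families, only Slco (16 of 22 peaks, 72.7%, 51.8–86.8%) had an interval above 40.0% under this rule. For 152 of the 185 peaks (82.2%) the nearest TSS of any protein-coding gene was that of a transporter gene on the list, and the other peaks lay nearer to a neighbouring gene.

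The co-bound peaks were unevenly spread over the genes. At least 5 co-bound peaks were found at 20 of the 85 transporter genes (8.32% of all genes reached that number). At least 10 were found at 5 genes (1.38% of all genes), namely Abca1, Abcc2, Abcc12, Abcd3 and Slc22a23. Together these 5 genes held 62 of the 185 co-bound peaks (33.5%). The plot of peaks per gene shows them at the top of their families. In the counts per gene, a shared peak was counted at each gene. Abca17, Abcg8 and Slc22a21 are thus among the 20, although none of their co-bound peaks was nearest to their own TSS. These counts were not compared at equal window length.

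**Figure D1:**
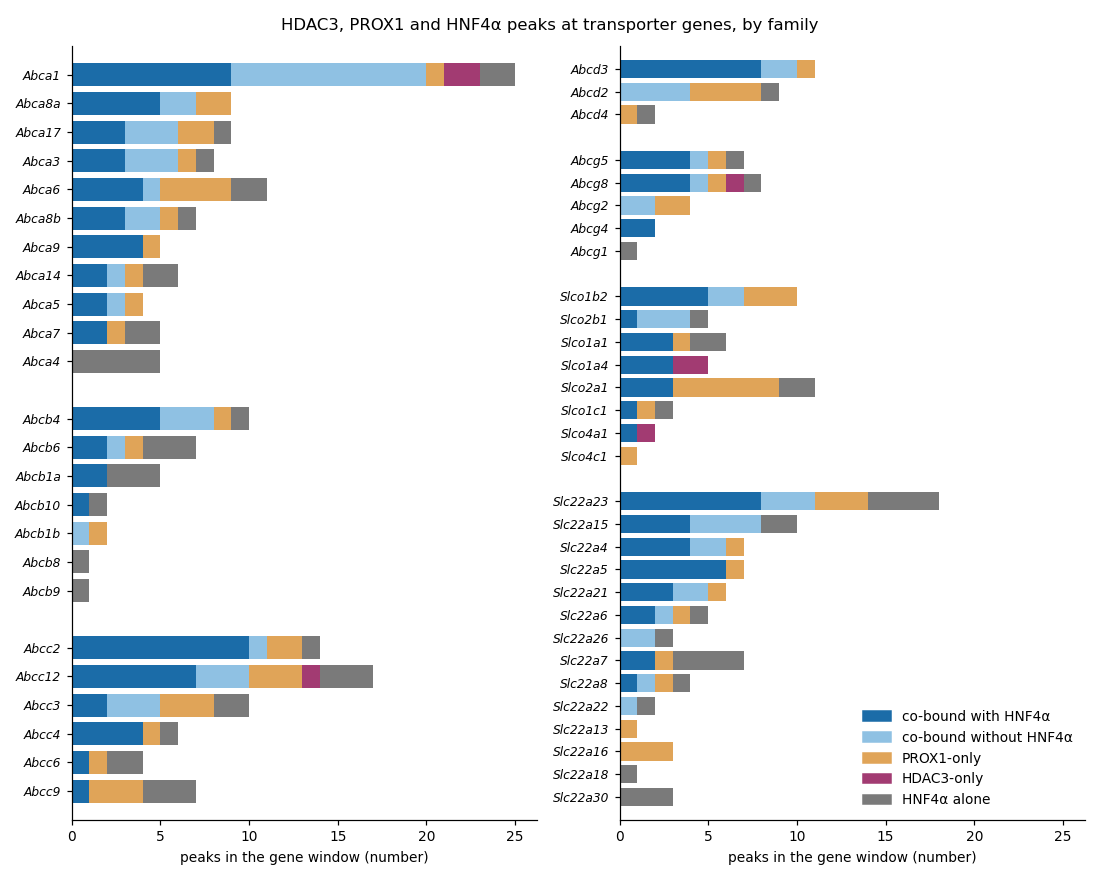
Number of peaks in the windows of the transporter genes shown, stacked by kind and grouped by family (horizontal axis, number of peaks; a peak in the windows of neighbouring genes is drawn at each of them). Abca1 has the longest bar, with 20 co-bound peaks, of which 9 carry HNF4α, and Abcc2 (11), Slc22a23 (11), Abcc12 (10) and Abcd3 (10) follow.

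The families ran over a range of densities. Abcd windows held 4.03 co-bound peaks per 100 kb (2.20–6.77), Abcc windows 2.24 (1.54–3.17), Abca windows 2.15 (1.59–2.84), Abcg windows 1.84 (0.881–3.38), Slc22a windows 1.83 (1.33–2.46), Abcb windows 1.42 (0.777–2.38) and Slco windows 1.10 (0.688–1.66). Neighbours in this order had overlapping intervals, and the highest and the lowest family did not. The share of genes with a co-bound peak ran from 11 of 25 Slc22a genes (44.0%) and 7 of 15 Slco genes (46.7%) to 4 of 6 Abcg genes (66.7%), against 38.4% of all genes, and the lowest families lay close to that value. The share of co-bound peaks with HNF4α was 78.1% for Abcc (25 of 32), 77.3% for Slco (17 of 22), 71.4% for Abcb (10 of 14), 70.0% for Abcg (7 of 10), 61.4% for Slc22a (27 of 44), 59.2% for Abca (29 of 49) and 57.1% for Abcd (8 of 14). All of these intervals overlap each other, so the families could not be ranked by this share. The Abca value rested in part on Abca1, and without that gene 20 of 29 peaks (69.0%) carried HNF4α. Slco windows had the fewest co-bound peaks per length of the families, level with the 1.10 of all genes, but strong HNF4α peaks. The HNF4α score, which ranks peaks within the deposited list, had a median of 64.6 in Slco windows, against 41.9 over the whole list. In the other families the median lay between 37.7 and 45.7. The 27 HNF4α peaks of the Slco windows lay at 7 of the 15 genes, and 17 of them in the Slco1 gene cluster of chromosome 6. At triply bound peaks the median score was 76.3 for Slco and 52.3 over all co-bound peaks.

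**Figure D2:**
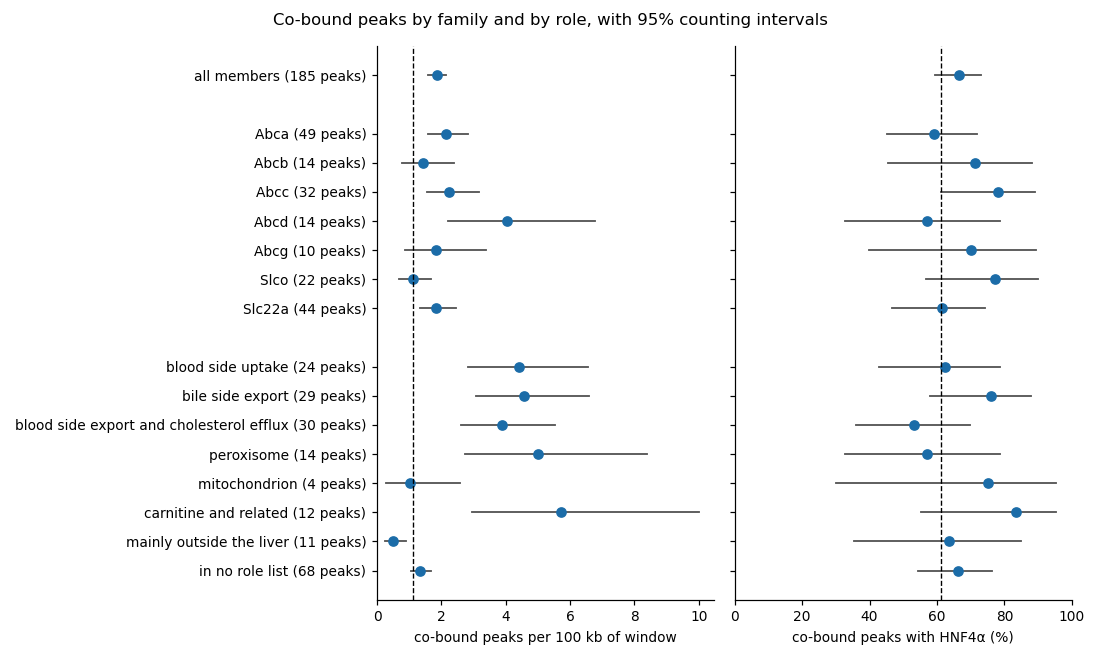
Co-bound peaks per 100 kb of merged window (left) and percent of co-bound peaks with HNF4α (right) for all 85 genes, each family and each role list; points are values, lines are 95% counting intervals (Poisson and Wilson), and dashed lines mark all protein-coding genes (1.10 per 100 kb) and all co-bound peaks (61.3%). The hepatocyte role lists lie between 3.87 and 4.58 peaks per 100 kb, and the genes mainly used outside the liver at 0.50.

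The genes were also grouped by where their proteins are known to work. All 6 genes for uptake from the blood, all 6 for export into bile and 4 of 5 for export to the blood had a co-bound peak. Thus 16 of 17 did, where 38.4% of all genes had one. The median windows of the 3 lists were 97.2, 113 and 110 kb, and 49.9% of all genes with windows longer than 81.3 kb had a co-bound peak. These lists held 4.40 (2.82–6.55), 4.58 (3.07–6.58) and 3.87 (2.61–5.53) co-bound peaks per 100 kb. The 15 genes used mainly outside the liver held 0.50 (0.249–0.894), below the 1.10 of all genes, and the 43 genes in no role list held 1.33 (1.04–1.69). The grouping was drawn up from general knowledge with earlier results of these data known, so its contrast is given as a description.

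Among the uptake carriers, the Slco1 gene cluster of chromosome 6 lies at the centre. It holds 6 genes whose windows contained 14 distinct co-bound peaks, and HNF4α lay on 12. Slco1b2 (chr6:141578039-141635167, plus strand), the main hepatocyte carrier of bilirubin and bile acids in this family, had 7 co-bound peaks. Its 5 triply bound peaks lay at -18.6, -15.3, -14.0, 5.89 and 11.4 kb from the TSS, where negative positions are upstream, with HNF4α scores of 104.6, 76.3, 101.8, 50.4 and 68.8. The co-bound peak on the TSS itself (-0.00250 kb) and that at 9.40 kb carried no HNF4α peak. Slco1a4 and Slco1a1 are organic anion carriers of the same membrane, and each had 3 co-bound peaks, all with HNF4α and all upstream. Those of Slco1a4 (chr6:141753961-141804720, minus strand) lay at -1.72, -9.98 and -12.8 kb with HNF4α scores of 74.4, 45.2 and 44.8. Those of Slco1a1 (chr6:141855803-141895483, minus strand) lay at -13.7, -15.7 and -45.8 kb with scores of 83.9, 67.4 and 88.6. Only 2 of these were nearest to the Slco1a1 TSS, and the peak at -45.8 kb, in an intron, was nearest to Gm6614. Slco1a4 also had 2 HDAC3-only peaks, at -19.7 and -20.0 kb. Slco1c1, a thyroid hormone carrier best known from brain capillaries, had 1 triply bound peak at -1.61 kb with a score of 87.2. The remaining 2 genes of the cluster, Slco1a6 and Slco1a5, had no peak of any list in 289 kb of merged windows. Their windows overlap each other and that of no other transporter gene on the list.

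The 200 bp co-bound peaks printed next carry HNF4α at Slco1b2 (chr6:141559338-141559537), Slco1a4 (chr6:141806340-141806539) and Slco1a1 (chr6:141911068-141911267). They are shown because they are the strongest HNF4α positions of their genes, or, at Slco1a1, the peak that holds the HNF4 core word CAAAGTNCA. All sequences here are the plus strand of mm9, in lower case, with capitals at each match on either strand to CAAAGTNCA, to the C/EBP word TTGCNNAA or to TAGGTCA, the word of the Rev-erb and ROR receptors. The Slco1b2 and Slco1a4 peaks hold a C/EBP word and no HNF4 core.
Slco1b2: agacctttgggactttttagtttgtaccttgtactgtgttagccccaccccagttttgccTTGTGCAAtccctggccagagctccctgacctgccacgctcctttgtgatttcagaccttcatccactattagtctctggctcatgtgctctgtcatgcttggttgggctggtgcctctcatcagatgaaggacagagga
Slco1a4: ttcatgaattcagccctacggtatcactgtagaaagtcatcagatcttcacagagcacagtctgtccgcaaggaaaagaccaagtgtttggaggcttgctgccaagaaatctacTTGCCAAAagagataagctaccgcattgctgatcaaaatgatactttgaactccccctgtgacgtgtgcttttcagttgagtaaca
Slco1a1: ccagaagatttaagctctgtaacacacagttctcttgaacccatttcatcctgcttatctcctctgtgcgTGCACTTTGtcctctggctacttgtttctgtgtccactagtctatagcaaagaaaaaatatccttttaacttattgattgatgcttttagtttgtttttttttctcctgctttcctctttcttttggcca

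**Figure D3:**
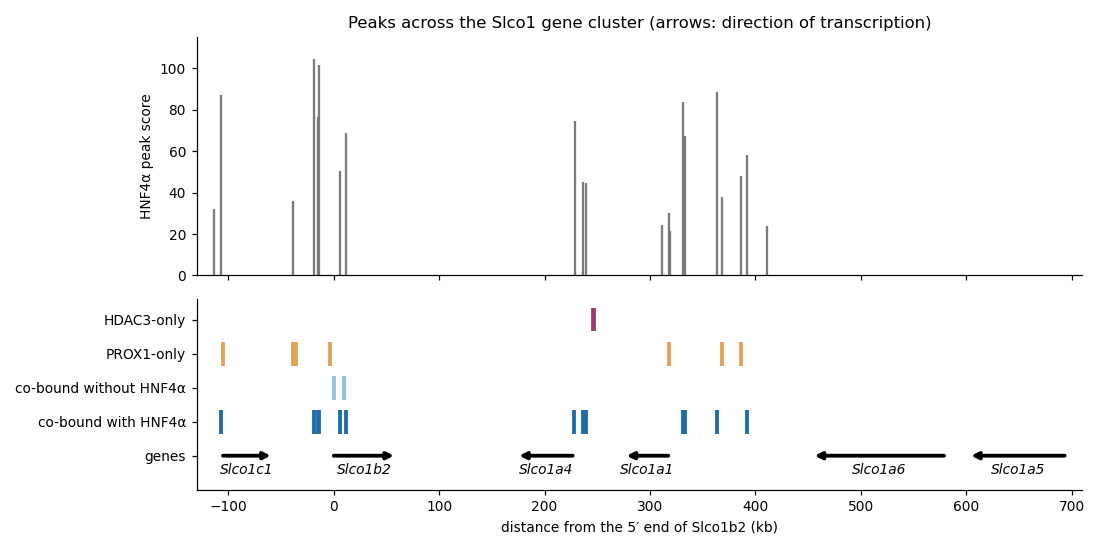
Peaks across the Slco1 gene cluster against distance from the 5′ end of Slco1b2 in kb; the upper panel gives the authors' score of every HNF4α peak and the lower panel the positions of genes and of HDAC3 and PROX1 peaks by kind. Peaks gather upstream and in the first part of Slco1b2 and upstream of Slco1a4 and Slco1a1, and none lies over Slco1a6 or Slco1a5.

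Slco2b1 (chr7:106806314-106859850, minus strand), a carrier of steroid sulfates and drugs, had 4 co-bound peaks, all inside the gene, at 15.6, 30.3, 30.6 and 46.6 kb. Only the first carried HNF4α, with a score of 94.7 and a coverage right at the limit of 50%. At the peak at 30.6 kb an HNF4α peak scoring 58.0 covered 28.0%. The peaks at 15.6 and 46.6 kb were centred within 1 kb of the 5′ end of an annotated protein-coding transcript. Slco2a1, which takes up prostaglandins, had the highest HNF4α score in the windows of the transporter genes, 133.3, at a triply bound peak at -12.1 kb. Other triply bound peaks lay at -19.9 kb (score 102.2) and -32.4 kb (score 64.6), beside 6 PROX1-only peaks. The peak at -12.1 kb (chr9:102898655-102898854) held both a C/EBP word and the HNF4 core, read as CAAAGTCCA on the minus strand.
Slco2a1: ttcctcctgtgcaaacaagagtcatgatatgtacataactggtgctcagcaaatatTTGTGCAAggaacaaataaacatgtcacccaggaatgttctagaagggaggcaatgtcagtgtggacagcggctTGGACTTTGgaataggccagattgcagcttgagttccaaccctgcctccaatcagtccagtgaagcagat

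Slc22a7 (chr17:46569134-46575426, minus strand) encodes OAT2, an organic anion carrier of the hepatocyte. It had 2 co-bound peaks, at -0.236 kb (HNF4α score 64.1) and -14.4 kb (score 98.0), and both carried HNF4α. Slc22a2 and Slc22a3, whose products carry organic cations in kidney and in other tissues, had no peak of any list. The Slc22a7 promoter peak (chr17:46575563-46575762) is shown as a promoter bound by all 3 factors, and it holds TAGGTCA and no HNF4 core.
Slc22a7: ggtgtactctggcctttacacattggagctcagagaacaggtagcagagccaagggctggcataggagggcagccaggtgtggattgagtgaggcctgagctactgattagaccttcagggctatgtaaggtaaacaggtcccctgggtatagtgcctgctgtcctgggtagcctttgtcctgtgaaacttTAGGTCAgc

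On the bile side, Abcc2 (chr19:43856682-43912441, plus strand), the exporter of bilirubin glucuronides, had 11 co-bound peaks, of which 10 carried HNF4α (90.9%, 62.3–98.4%). They were spread from -15.6 to 49.2 kb, with HNF4α scores from 21.2 to 99.4. The 1 peak without HNF4α lay on the promoter, at 0.0705 kb. Of the 11 peaks, 7 lay nearest to the Abcc2 TSS and the others nearest to Cox15 or Gm10768. Abcb4 (chr5:8893717-8959225, plus strand) moves phosphatidylcholine into bile and had 8 co-bound peaks, of which 5 carried HNF4α. The strongest lay at -20.1 kb (score 90.0), 11.0 kb (82.5) and 53.9 kb (75.4). Its neighbours Abcb1a and Abcb1b encode the P-glycoprotein drug pumps. Abcb1a had 2 co-bound peaks, both triply bound, at -0.114 kb (score 34.9) and 56.1 kb (41.9). Abcb1b had 1, without HNF4α, which it shared with the upstream window of Abcb4. Thus in a run of 3 neighbouring genes the co-bound peaks numbered 2, 1 and 8. The Abcb1a promoter peak (chr5:8659864-8660063) is printed as the only promoter peak of the Abcb family bound by all 3 factors, and holds a C/EBP word.
Abcb1a: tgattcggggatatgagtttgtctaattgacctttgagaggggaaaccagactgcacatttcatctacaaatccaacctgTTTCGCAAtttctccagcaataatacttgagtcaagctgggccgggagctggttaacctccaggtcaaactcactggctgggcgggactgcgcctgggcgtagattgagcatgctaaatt

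Abcg5 and Abcg8 encode the partners of the sterol pump and are transcribed away from each other, so that their windows overlap. They shared 4 co-bound peaks and each had 1 more, and 5 of the 6 distinct peaks carried HNF4α. One of the shared peaks lay on the Abcg5 TSS (-0.0405 kb, score 45.7), and the strongest in the pair lay at -6.53 kb (88.1) and -49.7 kb (95.2) from Abcg5. Abcg8 also had an HDAC3-only peak at -25.7 kb. Abcg2, a drug and urate pump, had 2 co-bound peaks, at 26.5 and 44.9 kb in its introns, and neither carried HNF4α.

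Among exporters to the blood, Abca1 (chr4:53043659-53172767, minus strand), which loads cholesterol and phospholipid onto apolipoprotein A-I, had 20 co-bound peaks, more than any other transporter gene on the list. HNF4α lay on 9 of the 20 (45.0%, 25.8–65.8%), fewer in proportion than at Abcc2, with intervals that overlap. The 20 peaks ran from -44.7 to 86.0 kb and 18 were nearest to the Abca1 TSS. The Abca1 promoter itself held an HDAC3-only peak at -0.0735 kb, the only HDAC3-only promoter peak among the transporter genes (0.961% of all genes had one). Its strongest HNF4α position was an intronic peak at 20.2 kb with a score of 121.6 (chr4:53152510-53152709). This peak is printed for its score, and it held no HNF4 core but 2 C/EBP words.
Abca1: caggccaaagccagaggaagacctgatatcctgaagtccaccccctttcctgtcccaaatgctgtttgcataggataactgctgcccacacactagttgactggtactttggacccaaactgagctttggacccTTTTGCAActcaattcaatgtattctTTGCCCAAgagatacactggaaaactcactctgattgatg

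Abcc3, which returns conjugates to the blood, had 5 co-bound peaks, all inside the gene from 3.86 to 45.6 kb, of which 2 carried HNF4α, with scores of 21.2 and 21.7. At the peak at 45.6 kb an HNF4α peak scoring 73.5 covered 48.5% and so fell short of the limit. Abcc3 also had 3 PROX1-only peaks, 1 of them on the promoter at -0.123 kb. Abcc4, another exporter of conjugates and nucleotides, had 4 co-bound peaks and all carried HNF4α, at -4.91, -8.35, -10.4 and 38.5 kb with scores of 36.8, 42.9, 26.9 and 46.2. Abcc6, whose loss causes ectopic calcification, had 1 triply bound peak at 1.52 kb (score 88.6) and a PROX1-only peak at 0.272 kb. Abcg1, a sterol exporter best known from macrophages, was the exception in this group, with no HDAC3 or PROX1 peak and a single HNF4α peak that scored 22.1.

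The peroxisomal genes encode carriers of very long and branched fatty acids. Abcd3 (chr3:121461827-121518220, minus strand) had 10 co-bound peaks, 8 with HNF4α, and 8 of the 10 lay nearest to its own TSS. The promoter peak at 0.836 kb was triply bound with a score of 43.8, and 6 peaks lay between -25.3 and -49.5 kb. Abcd2 (chr15:90976315-91022238, minus strand) had 4 co-bound peaks and no triply bound one. At its promoter peak (-0.203 kb) an HNF4α peak scoring 49.5 covered 25.0%, and at -11.9 kb another covered 36.5%, so the absence of triple binding there depended on the overlap rule. Under a rule of any overlap the share for the Abcd family was 71.4% in place of 57.1%, and under a rule of 75% it was 7.14%. Abcd4, which acts in lysosomal cobalamin export, had no co-bound peak, 1 PROX1-only peak and 1 HNF4α peak on its promoter that scored 26.4. The Abcd3 peak at -25.3 kb (chr3:121543386-121543585) held the core as CAAAGTTCA on the minus strand, and is printed for that reason.
Abcd3: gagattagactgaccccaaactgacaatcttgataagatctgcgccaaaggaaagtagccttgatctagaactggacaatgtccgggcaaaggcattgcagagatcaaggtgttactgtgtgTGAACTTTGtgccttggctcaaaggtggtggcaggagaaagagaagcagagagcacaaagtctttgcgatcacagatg

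The 4 mitochondrial ABC genes held 1.01 co-bound peaks per 100 kb (0.275–2.58), near the 1.10 of all genes. This value rests on 4 peaks, and its interval also includes the 1.85 of all transporter genes. Abcb6, a porphyrin transporter, had 3 co-bound peaks, from -34.3 to -42.1 kb, and none was nearest to its own TSS. Its promoter held 2 HNF4α peaks without HDAC3 or PROX1. Abcb10, which is required for haem synthesis, had 1 triply bound intronic peak at 9.42 kb with a score of 104.6. Abcb8 had no HDAC3 or PROX1 peak and 1 HNF4α peak, with a score of 48.5.

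The carnitine genes on chromosome 11 were densely bound, with 5.73 co-bound peaks per 100 kb (2.96–10.0) and HNF4α on 10 of 12 (83.3%). Slc22a5, the high-affinity carnitine carrier OCTN2, had 6 co-bound peaks and all carried HNF4α, at -19.5, -17.2, -12.7, -11.2, 2.36 and 8.19 kb with scores of 62.7, 64.1, 84.3, 43.3, 81.5 and 28.7. Its promoter held a PROX1-only peak at -0.520 kb. Slc22a4, which carries ergothioneine, had 6 co-bound peaks. HNF4α covered 4 of these, including 1 on the promoter at -0.793 kb (score 54.2). Slc22a21, a carnitine carrier, had 5 co-bound peaks, all shared with the window of Slc22a4 and none nearest to the Slc22a21 TSS. The plot of peaks around the 5′ ends shows these genes beside the other role lists.

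**Figure D4:**
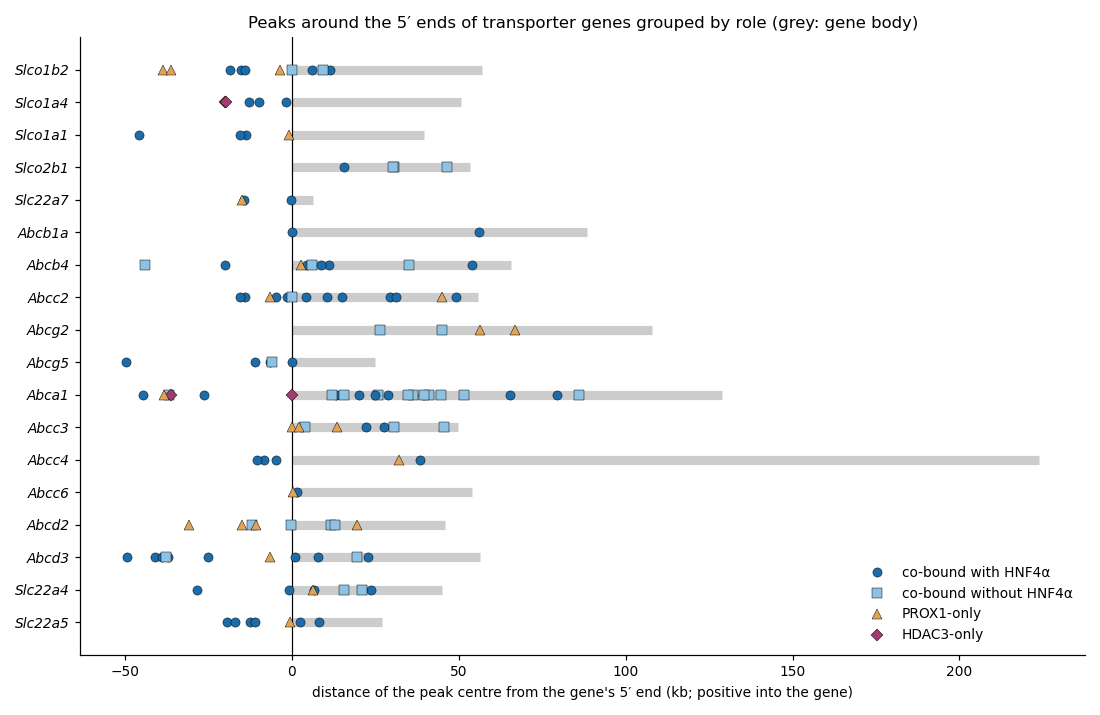
Distance in kb of each HDAC3 and PROX1 peak centre from the 5′ end of the gene, for 18 genes of the role lists that had a co-bound peak; each peak is drawn at the listed gene whose TSS is nearest, grey bars are gene bodies, and colours and shapes give the kind of peak. Among the co-bound peaks, HNF4α is missing from 11 of 20 at Abca1, 3 of 4 at Slco2b1, 3 of 5 at Abcc3 and all at Abcg2 and Abcd2, all co-bound peaks of Slc22a5 and Abcc4 carry HNF4α, and at Abca1 a single HDAC3-only peak marks the 5′ end.

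Of the 15 genes used mainly outside the liver, 5 had a co-bound peak (33.3%, against 38.4% of all genes) and 8 had no peak of any list (53.3%, against 44.7%), so both shares were near those of all genes. Abca3, the lipid carrier of lung surfactant, had 6 co-bound peaks inside the gene. HNF4α lay on 3, and all 6 also fell in the window of Abca17, its divergent neighbour. The kidney anion carriers Slc22a6 and Slc22a8 lie next to each other and had 3 and 2 co-bound peaks, with 2 shared. Abcc9, the regulatory subunit of muscle potassium channels, had 1 triply bound peak at -36.1 kb, nearest to Cmas, and Slco1c1 had the 1 described above. Abca4, the retinal flippase, had 5 HNF4α peaks and no HDAC3 or PROX1 peak. Slco4c1, a kidney carrier, had 1 PROX1-only peak. The genes without any peak were Abca12, Abca13, Abcc8, Slc22a2, Slc22a12 and the testis genes Slco6b1, Slco6c1 and Slco6d1.

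Outside the role lists, the highest numbers fell at Slc22a23, Abcc12, Slc22a15 and Abca8a. Slc22a23 (chr13:34271027-34437051, minus strand), whose substrate is not established, had 11 co-bound peaks, and HNF4α lay on 8. All but 1 were nearest to its own TSS, and the closest lay at 40.1 kb, so no listed peak lay at its promoter. Abcc12 had 10 co-bound peaks, 7 with HNF4α, of which 6 of the 10 were nearest to its TSS and others to Lonp2. Its core-bearing peak lay at -34.7 kb with a score of 98.0 (chr8:89139145-89139344), and read CAAAGTGCA on the minus strand. Slc22a15 had 8 co-bound peaks and HNF4α on 4 of them. Abca7 and Abcg4 each had 2 triply bound peaks, all nearest to other genes, and Slco4a1 and Slc22a22 each had 1 co-bound peak inside the gene, at 13.6 and 11.3 kb.
Abcc12: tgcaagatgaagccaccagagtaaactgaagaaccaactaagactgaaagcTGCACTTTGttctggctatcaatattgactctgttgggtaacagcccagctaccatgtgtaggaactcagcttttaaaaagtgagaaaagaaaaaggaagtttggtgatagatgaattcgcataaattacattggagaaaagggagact

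On chromosome 11 the neighbouring genes Abca8b, Abca8a, Abca9, Abca6 and Abca5, a cluster of lipid-carrier relatives, had 5, 7, 4, 5 and 3 co-bound peaks. They amounted to 18 distinct peaks, of which 13 (72.2%, 49.1–87.5%) carried HNF4α. The highest score, 127.2, was reached at 6.86 kb in Abca6. Abca8b and Abca6 each had 2 co-bound peaks at the promoter, 1 with and 1 without HNF4α. Abca14 had 3 co-bound peaks at -14.4, -30.2 and -31.6 kb, which were nearest to Anks4b or Crym, and its neighbours Abca15 and Abca16 had none. In the Slc22a19 to Slc22a30 cluster of chromosome 19, only Slc22a26 had co-bound peaks, 1 of them on the promoter at -0.115 kb, both without HNF4α, and 4 of the 6 genes had no peak.

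Co-bound promoters were found at 12 transporter genes (14.1%), where 5.05% of all genes had one. They included Abca8b, Abca6, Abcb1a, Abcc2, Abcd2, Abcd3, Abcg5, Slco1b2, Slc22a4, Slc22a7 and Slc22a26. A promoter peak was centred within 1 kb of the TSS. Their 15 promoter peaks included 7 with HNF4α and 8 without. Triply bound promoters were found at 7 genes (8.24%, against 2.91%) and promoters with any HNF4α peak at 14 (16.5%, against 9.38%). PROX1-only promoters were found at 6 genes (against 1.92% of all genes), which were Abca8a, Abcc3, Abcc6, Slco1c1, Slco1a1 and Slc22a5. At Slco1a1 and Abcc6 an HNF4α peak also lay at the promoter. Further HNF4α promoter peaks without co-binding were those of Abcb6, Abcd4, Slco2b1 and Slco2a1.

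Most co-bound peaks lay away from promoters, here and over all co-bound peaks. Introns held 104 of the 185 (56.2%, against 46.2% of all co-bound peaks) and intergenic sequence 53 (28.6%, against 42.4%). Exons held 8 (4.32%, against 3.47%) and promoters of any protein-coding transcript 20 (10.8%, against 7.91%). The windows span whole gene bodies but only 50 kb upstream, so the places are not compared on equal terms. HNF4α lay on 79.2% of the intergenic peaks (42 of 53, 66.5–88.0%), 63.5% of the intronic (53.9–72.1%), 6 of the 8 exonic peaks (40.9–92.9%) and 45.0% of the promoter peaks (25.8–65.8%). Over all co-bound peaks these shares were 62.3%, 61.4%, 62.2% and 54.7%. The intergenic interval of the transporter genes lay above the value of all co-bound peaks, but the families were uneven. HNF4α lay on all 12 intergenic Slco peaks, 11 of 12 Abcc, 5 of 7 Abcd, both Abcb, 6 of 10 Abca and 6 of 10 Slc22a peaks. The median distance of a co-bound peak from the nearest listed TSS was 19.5 kb, with 89 peaks upstream and 96 downstream, and 51 lay within 10 kb.

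The HNF4 core CAAAGTNCA was present in 11 of the 185 co-bound peaks, or 5.95% (3.35–10.3%), against 7.21% of all co-bound peaks and 1.01% of windows of the same length 2 kb to either side. Of the 11 peaks, 10 carried HNF4α. Slco peaks held 5 of the 11 (22.7% of 22 peaks, 10.1–43.4%), at Slco1c1, Slco1a1, Slco2b1 and, with 2, Slco2a1. Abcb and Abcg peaks held none, which with 14 and 10 peaks allows shares of up to 21.5% and 27.8%. The C/EBP word TTGCNNAA was present in 50 of the 185 peaks (27%, 21.1–33.8%), against 26.1% of all co-bound peaks and 8.15% of the flanks. TAGGTCA was present in 3.24% (1.49–6.89%), against 5.04% and 2.12%, and 4 of its 6 peaks were Slc22a peaks. None of the words contains another, partial overlaps were counted, and a match describes the sequence only.

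HNF4α peaks that touched no HDAC3 or PROX1 peak numbered 65 and lay at 39 genes (45.9%, against 33.7% of all genes). A set of 11 genes had peaks but no co-bound peak, among them Abca4, Abcb8, Abcb9, Abcd4, Abcg1, Slco4c1, Slc22a13, Slc22a16, Slc22a18 and Slc22a30. In this set Slc22a16 had 3 PROX1-only peaks and Slc22a30 had 3 HNF4α peaks. Another 5 genes had co-bound peaks but none with HNF4α, and these were Abcb1b, Abcd2, Abcg2, Slc22a22 and Slc22a26. Over all genes, 38.4% had a co-bound peak, 31.1% a triply bound peak and 44.7% no peak of any list. For the transporter genes these shares were 52.9%, 47.1% and 34.1%. Genes of both kinds thus also occur among all genes, and neither count is particular to the transporter genes. Besides genes named above, no peak was found at Abca2, Abcb5, Abcc1, Abcc5, Abcc10, Abcg3, Slco5a1, Slco3a1, Slc22a17, Slc22a20, Slc22a19, Slc22a27, Slc22a28, Slc22a29 and Slc22a14. A missing peak says that the pooled signal did not pass the authors' limits there.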

How the data were processed

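The transporter genes and the role lists were chosen with earlier results of these data known. Reads had been mapped by the authors to mm9 using Bowtie 0.12.7. After duplicate removal, replicates of a factor were merged and HOMER was used for peak calling, with IgG as the input. The authors deposited peak positions for the 3 factors and, for HNF4α, a score per peak whose scale is not stated. The HDAC3 and PROX1 lists already hold the authors' classification of shared peaks, and 3 empty lines in each were left out. Genes came from the GENCODE M1 annotation of NCBIM37, which is mm9. Gene windows, promoters (1 kb around the 5′ end) and overlaps (50%) were as defined above. Shares carry Wilson and densities exact Poisson 95% intervals for counting error. No test was run, because the lists have no replicates. Depth is unknown, and the other libraries of the series were not used here. Genes named with values were those of the role lists, the 3 with most co-bound peaks in each family, those with a peak at the promoter and those without a peak, and some others were named after their values were seen. Some genes are counted in the totals and not reported singly here. Of the printed peaks, 5 followed a rule of the highest HNF4α score with the HNF4 core, or of a hepatocyte promoter, outside exons; those of Abca1, Slco1b2, Slco1a4 and Slco1a1 were added after the values were seen. Code was tested on simulated data. Python 3.11.15, numpy 2.4.6, scipy 1.17.1 and matplotlib 3.10.9 were used.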

Additional observations from a re-analysis of the deposited data

How the results depend on the processing

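The number of transporter genes with a co-bound peak was 45, and it was 36 with windows from 10 kb upstream, 37 when each peak was given to the nearest TSS within 100 kb, and 45 when co-binding needed a 50% overlap in place of identical coordinates. The co-bound peaks numbered 185, 125, 166 and 185 in the same order. The share of co-bound peaks with HNF4α, 66.5%, moved to 31.9% when 75% of a peak had to be covered and to 48.6% when only HNF4α peaks scoring above the median of the list were used. Both rules are stricter by construction. Over all co-bound peaks the shares were 32.5% and 40.0%. The transporter genes lay level with all peaks under the first rule and above them, with intervals that do not overlap, under the second. Only the Slco family, at 72.7%, had an interval above 40.0% under the second rule. The share over all transporter genes stayed between 60.0% and 71.4% with any overlap, with shorter windows and with the nearest TSS. It was 64.9% without the Slco1 gene cluster, an alternative chosen after seeing the data. The densities of the 7 families stayed within their counting intervals with the shorter windows. Co-bound promoters numbered 12, and 18 within 2.5 kb of the TSS or 14 when the TSS of any protein-coding transcript counted, which was also chosen after seeing the data. The HNF4 core share was 5.41% in the central 100 bp in place of 5.95%. No paired analysis was possible because the deposited lists pool the replicates, carry no replicate numbers and were not tested, and for the same reason no replicate could be left out. The limits of the peak calls and the unknown depth set which weak peaks are listed.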
